A study of Mus musculus with 12 samples.

Results

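Genomic imprinting restricts the expression of certain autosomal genes to the copy inherited from one parent, and 34 such genes were followed here in hybrid mouse embryonic stem cells. They were chosen by name as genes known to be imprinted in mouse. All 34 had an entry among the 22556 genes of the count tables, and 25 were informative, meaning 20 or more allelic counts in the average library, while 9 fell short of that. Ordinary autosomal genes, of which 11853 passed the same limit after other known imprinted genes were left out, served as the comparison.

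Imprints are set in the germ line, mostly as DNA methylation at CpG-rich control regions, and are kept through the cleavage divisions by the zinc finger protein ZFP57, which binds the methylated copy and recruits TRIM28 and the DNA methyltransferases. Paternally expressed genes such as Peg3, Snrpn, Mest and Plagl1 are as a rule transcribed from the unmethylated paternal copy, and maternally expressed genes such as Igf2r and Grb10 from the maternal copy. Some genes, such as Ube3a, Commd1 and Copg2, show parental expression in certain tissues only. Cultured embryonic stem cells are known for gains and losses of methylation at imprinted loci.

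The study examined how the A-repeat and the adjacent m6A region of Xist contribute to silencing of the X chromosome. The cells were iXist-ChrX, female XX mouse embryonic stem cells of a 129S by Cast cross in which a TetOn promoter replaces the native Xist promoter on the 129S allele, so that doxycycline (Dox) switches Xist on. Chromatin-associated RNA was sequenced (ChrRNA-seq), which is rich in nascent transcripts and includes introns. Read pairs that cover a sequence difference between the strains were assigned to 129S or Cast, and the 129S share of these allelic counts is the measure used throughout. An equal contribution of both copies gives a share of 0.5, and a gene read only from the 129S copy a share near 1.

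All lines carried the TetOn promoter and were sampled at 0 h and after 24 h of Dox. WT, the parental iXist-ChrX line with intact Xist, had 1 library per state. XistΔAprec, which lacks the A-repeat, was represented by 3 clones named C1, 2C2 and C11 with 1 library each per state. The sample titles name the deletion alike for the 3 clones, but other deposited data of C11 use another designation than those of C1 and 2C2. The study describes 2 XistΔAprec lines and, apart from them, a larger A-repeat deletion. Whether C11 carries the same deletion as C1 and 2C2 is therefore not known here, and C11 was grouped as labelled. XistΔm6A/11C, which lacks the m6A region, was 1 line with 2 replicates per state. Each of the 5 lines descended from a single clone, so that a difference between lines cannot be told apart from a difference between clones. The labels do not state which strain was the mother, and no share is therefore read here as maternal or paternal.

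Gene counts per library ranged from 18893447 to 36007145 (median 26552191), and 44.6% to 47.1% of the counts of a library were allelic. The median 129S share of autosomal genes lay between 0.514 and 0.527 in every library. Xist, which checks the treatment, was at 85.6 to 297 RPM (counts scaled to the depth of the library) in the 6 libraries without Dox, with a median of 125 RPM. Xist stood at 1267 to 5514 RPM in the 6 libraries with Dox, with a median of 2370 RPM. The 2 states did not overlap. Between 98.2% and 99.9% of allelic Xist counts fell in the same parental column in every library, and that column was taken as 129S because the labels place the inducible copy there. Counts over the whole span of Xist do not show whether the A-repeat or the m6A region was deleted.

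The 9 markers of embryonic stem cells summed to 1631 to 2437 RPM per library, led by Zfp42. Sox2 had 0 counts in every library, but it lies wholly inside Sox2ot on the same strand, where read pairs overlapping both genes were not counted, so that these counts do not measure it. The cells were grown on inactivated mouse fibroblasts as feeders, which the study's methods remove by pre-plating before extraction. All 9 fibroblast markers had counts in at least 1 library, and they summed to 33.9 to 76.4 RPM, with a median of 68.3 RPM. Fbn1 was the most abundant of them with a mean of 39.5 RPM, whereas Lum and Postn had 0 counts in some libraries. Neuronal markers summed to 263 to 375 RPM (6 genes, led by Stmn2), trophoblast markers to 4.28 to 10.8 RPM (5 genes, led by Eomes) and primitive endoderm markers to 11.8 to 38.1 RPM (5 genes, led by Gata4). The primitive endoderm sum was higher in the 4 XistΔm6A/11C libraries than in the other libraries, and the fibroblast sum was lower. In bulk RNA, fewer cells of a type and less RNA per cell cannot be told apart.

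The 9 genes without enough allelic counts were Snurf, Ndn, Magel2, Nnat, Peg13, Kcnk9, Mcts2, Nap1l5 and Dcn. Peg13 and Mcts2, which lie wholly inside Trappc9 and H13 on the same strand, had 0 counts, since read pairs that overlap 2 genes on a strand were not counted. Snurf, whose span overlaps that of Snrpn in all but its outermost base, had 7 allelic counts over the 12 libraries. Kcnk9, a potassium channel gene, had 1 count in all. Ndn, Magel2, Nnat, Nap1l5 and Dcn had 38, 61, 5, 13 and 64 allelic counts over the 12 libraries. Of all counts 4.3% (Nnat) to 15.6% (Magel2) were allelic for the first 4 of these and 52.0% for Dcn, beside 16.9% to 68.4% for the informative genes. Ndn had 1.17 RPM per kilobase of gene span (RPKM), above Snrpn with 0.117 RPKM, and Dcn had 0.0101 RPKM. For Snrpn the span includes the part shared with Snurf, which was not counted.

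Most informative imprinted genes were read from both parental copies at close to equal rates. Without Dox, 20 of 25 had a mean share over the 5 lines from 0.4 to 0.6, and 68.3% of ordinary autosomal genes did so as well. The median share of the 25 was 0.514, beside 0.521 for ordinary genes, and their median distance from 0.5 was 0.0490, beside 0.0596. Only Snrpn had a share at or beyond 0.1 or 0.9, which 1.17% of ordinary genes reached. The 5 genes outside the middle range were Peg3 below it, and Herc3, Commd1, Plagl1 and Snrpn above it.

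The plot of shares by gene sets the 12 libraries of each informative gene beside the median of its neighbours, the ordinary genes starting within 5 Mb. A region can carry unequal copies of a chromosome or a strain difference, and its neighbours show whether a gene stands apart from its surroundings. A distance of at least 0.1 from the neighbours was found for 6 of 25 genes (Peg3, Usp29, Snrpn, Ppp1r9a, Plagl1 and Inpp5f), and for 22.6% of ordinary genes. This rule was chosen after seeing the data.

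**Figure D1:**
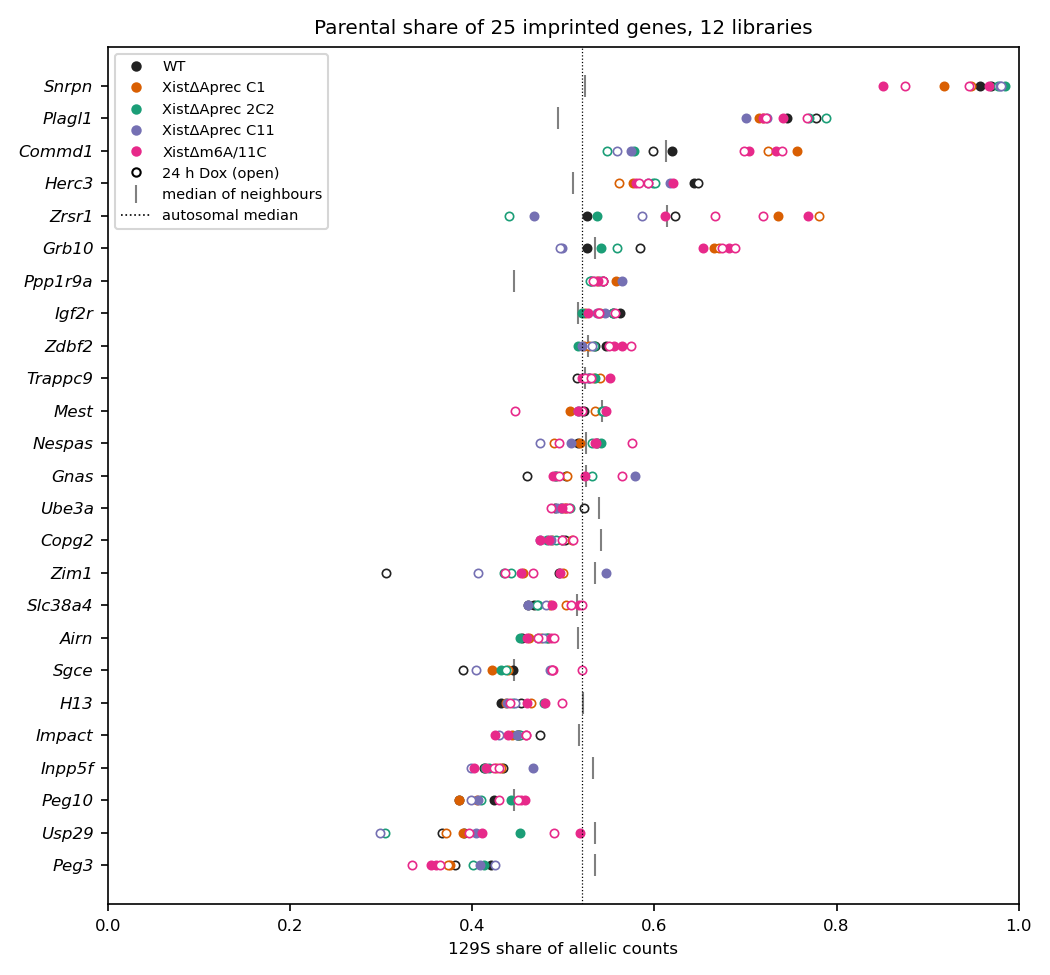
129S share of allelic counts (horizontal axis) of the 25 informative imprinted genes (rows), with 1 point per library coloured by line, open with Dox, a grey bar for the median of neighbouring genes and a dotted line for the autosomal median. Snrpn lies between 0.851 and 0.985 in the 12 libraries, Plagl1 between 0.701 and 0.788 and Peg3 between 0.333 and 0.425.

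The plot of the share distribution places the same 25 genes under the 11853 ordinary genes. Their ticks run from 0.395 for Peg3 to Snrpn near the right edge, and most sit under the central peak of the ordinary genes.

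**Figure D2:**
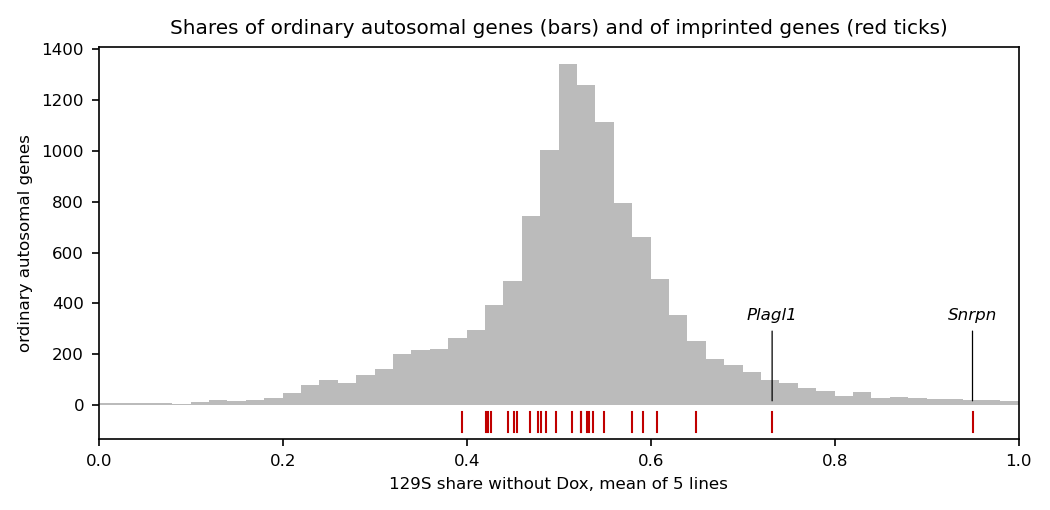
Number of ordinary autosomal genes (vertical axis) by 129S share without Dox, as the mean of 5 lines (horizontal axis), with a red tick for each informative imprinted gene. The median is 0.521 for ordinary genes and 0.514 for imprinted genes.

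Whether the copies differed was tested within the 6 libraries without Dox (edgeR quasi-likelihood test, Benjamini-Hochberg adjustment over 11918 autosomal genes, threshold 0.05). The test called 19 of 25 imprinted genes, beside 59.5% of all autosomal genes tested, so that a call by itself sets an imprinted gene apart from few others. Of the 19, 11 were higher from 129S and 8 from Cast, and over all genes 4556 were higher from 129S and 2538 from Cast. With TMM scaling of each parental column, which lowered the median log2 ratio of 129S to Cast over all genes from 0.12 to 0.00, the split was 6 and 11 for imprinted genes and 3262 and 3344 for all genes. The median log2 ratio of the imprinted genes was 0.07, and -0.05 with TMM scaling.

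Genes of the same imprint type were called towards both strains. Of 14 informative paternally expressed genes, 12 were called, with Zdbf2, Plagl1, Nespas, Mest and Snrpn higher from 129S, and Airn, Impact, Sgce, Peg10, Peg3, Usp29 and Inpp5f higher from Cast. With TMM scaling the calls of Zdbf2, Nespas and Mest were lost and Slc38a4 was called towards Cast, which left 2 genes towards 129S and 8 towards Cast. Of 3 widely maternally expressed genes, Grb10 and Igf2r were higher from 129S, the latter without a call under TMM scaling. Of 7 genes maternally expressed in some tissues, Commd1, Trappc9, Ppp1r9a and Herc3 were higher from 129S and H13 from Cast, and with TMM scaling Trappc9 lost its call while Copg2 and Ube3a were called towards Cast. The median share was 0.473 over the 14 paternally expressed genes and 0.534 over the 10 maternally expressed genes of both kinds. Among the latter, Grb10 and Commd1 lie on chromosome 11, where neighbouring genes also leaned to 129S in some lines. The neighbours of Grb10 had 0.629 in C1 and 0.628 in XistΔm6A/11C. Gnas, which is imprinted in opposite directions by transcript, was not called (log2 0.07, SE 0.10). The calls of Sgce, Mest and Nespas were each lost when certain single lines or replicates were left out: Sgce without C1 or 2C2, Mest without 2C2, C11 or either XistΔm6A/11C replicate, and Nespas without 2C2 or either XistΔm6A/11C replicate.

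Snrpn, which encodes a spliceosomal Sm protein and is the classical paternally expressed gene of the Prader-Willi region, was the only informative gene read almost entirely from a single copy. In WT its share was 0.957 without Dox (Wilson 95% interval 0.937 to 0.972) and 0.970 with Dox (0.9503 to 0.9814). In clone C1 it was 0.918 (0.870 to 0.949) and 0.948 (0.913 to 0.969), in 2C2 0.985 (0.966 to 0.994) and 0.977 (0.961 to 0.987), and in C11 0.979 (0.965 to 0.988) and 0.980 (0.966 to 0.988). In XistΔm6A/11C replicate 1 it was 0.967 (0.919 to 0.987) and 0.945 (0.904 to 0.969), and in replicate 2 it was 0.851 (0.747 to 0.917) and 0.875 (0.739 to 0.945). All 12 libraries were far to the 129S side, with replicate 2 of XistΔm6A/11C lowest and clone C1 without Dox next. These intervals, here and elsewhere, take in only the error of counting, as no molecular identifiers were used and repeated copies of a fragment cannot be told apart.

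The line shares without Dox ran from 0.909 in XistΔm6A/11C to 0.985 in 2C2 (SD 0.0351, n = 5), and the 22 neighbouring genes had 0.524. The log2 ratio of 129S to Cast was 4.57 (SE 0.32, edgeR adjusted p = 4.25e-06), higher from 129S in 6 of 6 libraries. Over all 12 libraries, 3873 of 4012 allelic counts came from 129S, a share of 0.965. The count rests on the part of the span outside Snurf, as 14.4% of the span of Snrpn is shared with Snurf on the same strand and was not counted. In the direction of transcription, the counted part lies upstream of the start shared with Snurf, and the uncounted part downstream of it. Share and level of Snrpn therefore describe the upstream part only, and transcripts downstream of the shared start were not measured.

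The 2 start sites of Snrpn that bracket this counted part are shown as 300 bases of RefSeq promoter sequence on GRCm38.p6, because the share of Snrpn stands apart. Both lie on the minus strand and are written 5′ to 3′ in the direction of transcription. The start shared with Snurf, at chr7:60005150-60005449, holds the ZFP57 motif TGCCGC 1 time as its reverse complement GCGGCA, and an upstream start, at chr7:60140176-60140475, holds it 0 times. Capitals mark the motif, which was searched on both strands.
Snrpn and Snurf start: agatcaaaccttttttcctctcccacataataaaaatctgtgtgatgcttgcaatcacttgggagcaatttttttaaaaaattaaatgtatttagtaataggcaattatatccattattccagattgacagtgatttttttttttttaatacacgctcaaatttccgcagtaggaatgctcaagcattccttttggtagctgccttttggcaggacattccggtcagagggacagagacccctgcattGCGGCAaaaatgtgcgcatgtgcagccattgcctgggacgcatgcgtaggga
Snrpn upstream start: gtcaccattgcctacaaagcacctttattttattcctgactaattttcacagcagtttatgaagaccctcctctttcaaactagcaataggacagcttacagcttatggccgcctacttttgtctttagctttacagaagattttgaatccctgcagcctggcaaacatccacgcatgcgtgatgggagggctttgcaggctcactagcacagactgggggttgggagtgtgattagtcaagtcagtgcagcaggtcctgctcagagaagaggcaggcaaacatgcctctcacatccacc

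Other genes of the Snrpn region, chosen after the values were seen, had few allelic counts or shares far below that of Snrpn. Snurf, which shares a start with Snrpn, had 2 of 7 counts from 129S over the 12 libraries, a share of 0.286 (Wilson 95% interval 0.0822 to 0.641). Summed over the 12 libraries, the share was 0.684 for Ndn (26 of 38 counts, Wilson 95% interval 0.525 to 0.809) and 0.607 for Magel2 (37 of 61 counts, 0.481 to 0.719), both of the MAGE family. It was 0.605 for Mkrn3 (0.514 to 0.690), 0.440 for Peg12 (0.359 to 0.525) and 0.527 for the non-coding Ipw (0.480 to 0.574). Ube3a, the ubiquitin ligase that is maternally expressed in neurons, had 0.501 (0.496 to 0.506) over 42205 counts. Nearly all of the span of Snurf overlaps that of Snrpn and was not counted, so that its share does not measure it. The counts of the other genes did not show the one-sided reading seen for Snrpn, and for Ndn and Magel2 the depth left wide intervals.

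In the counted part of its span, the level of Snrpn also differed between lines (edgeR F test over lines, adjusted p = 0.000236). It was 33.7 RPM in C11, 27.3 RPM in WT, 11.2 RPM in C1 and 6.77 RPM in XistΔm6A/11C, as means over the libraries of each line, with 22.4 and 27.7 RPM in the libraries of 2C2. The 12 libraries ran from 3.46 to 35.7 RPM, and those of C1 and XistΔm6A/11C were all below those of WT, 2C2 and C11. Its share differed between lines as well (edgeR adjusted p = 0.00243, range of line shares 0.0764), with the lower shares in the same C1 and XistΔm6A/11C lines. The low line share of XistΔm6A/11C without Dox came from replicate 2 with 0.851, as replicate 1 had 0.967, beside 0.957 in WT. With Dox the replicates had 0.945 and 0.875, in order of number, beside 0.9695 in WT. The fibroblast markers summed to 33.9 to 48.4 RPM in the 4 XistΔm6A/11C libraries and to 63.0 to 76.4 RPM in the other libraries, C1 included. The allelic counts of these markers were 0.562 to 0.685 from 129S per library, and over all libraries the most abundant, Fbn1, had a share of 0.588. Thy1, Pdgfrb and Col1a2 had 0.524, 0.571 and 0.681, and Col5a2, Col1a1, Col3a1 and Postn had 0.803, 0.804, 0.904 and 0.931. The part of feeder RNA in the share and level of Snrpn was not tested.

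The 3 panels on Snrpn show its share, its level and the fibroblast sum in the same order of libraries. Level and fibroblast sum are both lowest in XistΔm6A/11C, whereas C1 has a low Snrpn level beside a fibroblast sum like that of the other XistΔAprec clones.

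**Figure D3:**
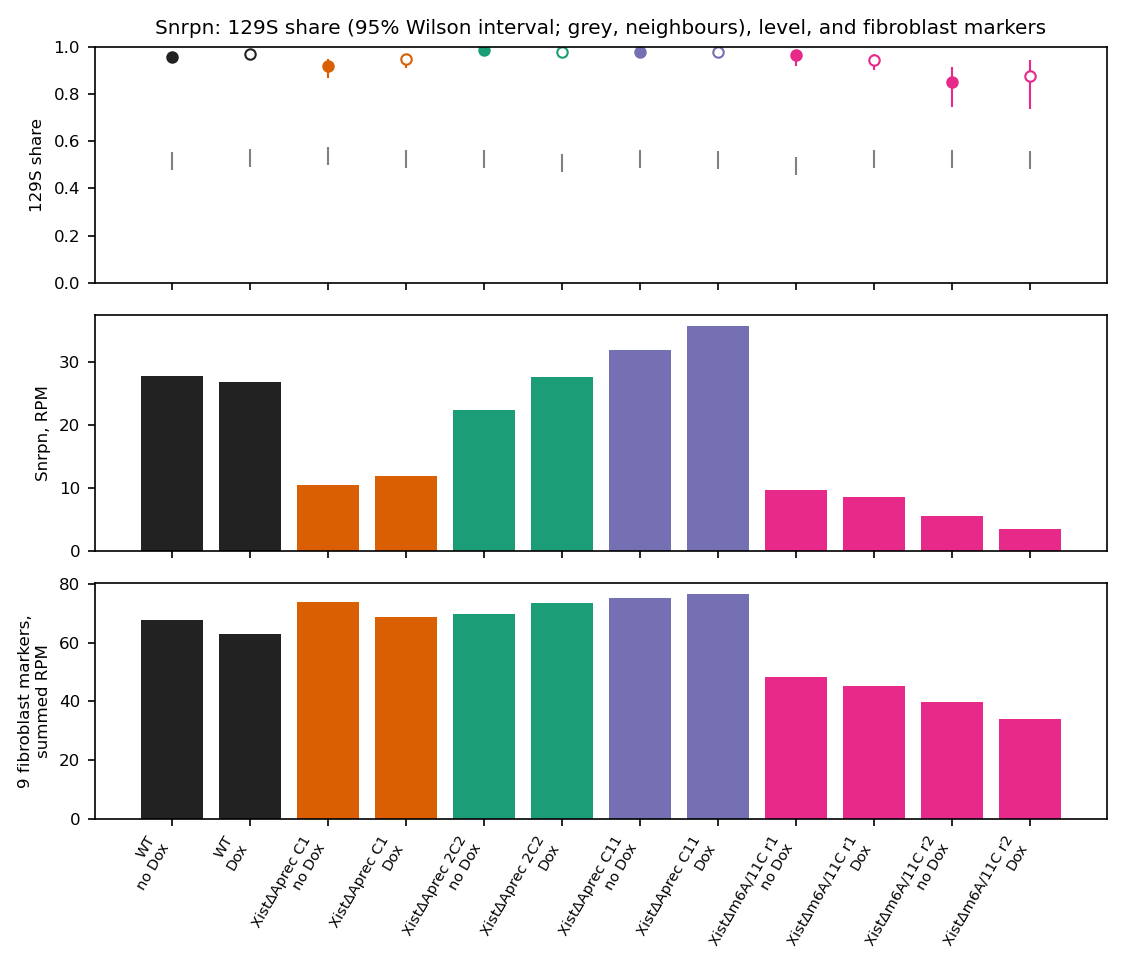
129S share of Snrpn with Wilson 95% intervals and the median of neighbouring genes as grey bars (upper panel), Snrpn level in RPM (middle panel) and summed level of 9 fibroblast markers in RPM (lower panel) in each of 12 libraries, coloured by line, with open points for Dox. The share stays at or above 0.851 while the level runs from 3.46 to 35.7 RPM.

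Plagl1, which encodes a zinc finger transcription factor and is paternally expressed, had the next highest share. Its mean was 0.732 ± 0.0268 (SD, n = 5), beside 0.494 for its 25 neighbours. The libraries ran from 0.701 in C11 without Dox (Wilson 95% interval 0.673 to 0.727) to 0.788 in 2C2 with Dox (0.763 to 0.811), so that both copies were read in every library and no library came near its neighbours. The log2 ratio of 129S to Cast was 1.45 (SE 0.07, edgeR adjusted p = 4.86e-07), higher from 129S in 6 of 6 libraries. The lines differed in share (edgeR adjusted p = 0.00338, range of line shares 0.0685), a call that was lost without clone 2C2.

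The promoter of Plagl1 is set beside that of Mest, a paternally expressed hydrolase gene with a share of 0.524, to show that the motif occurs in both. These genes were chosen for display after their values were seen. Both sequences are 300 bases of RefSeq on GRCm38.p6, plus strand, at chr10:13090582-13090881 for Plagl1 and chr6:30737800-30738099 for Mest, with the motif in capitals. It occurs 1 time in Plagl1 and 2 times in Mest, each as GCGGCA.
Plagl1 start: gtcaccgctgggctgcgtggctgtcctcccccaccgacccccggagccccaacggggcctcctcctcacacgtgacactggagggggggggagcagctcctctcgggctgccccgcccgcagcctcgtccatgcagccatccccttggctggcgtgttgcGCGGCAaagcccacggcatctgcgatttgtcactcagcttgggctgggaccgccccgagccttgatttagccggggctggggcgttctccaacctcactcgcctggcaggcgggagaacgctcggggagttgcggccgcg
Mest start: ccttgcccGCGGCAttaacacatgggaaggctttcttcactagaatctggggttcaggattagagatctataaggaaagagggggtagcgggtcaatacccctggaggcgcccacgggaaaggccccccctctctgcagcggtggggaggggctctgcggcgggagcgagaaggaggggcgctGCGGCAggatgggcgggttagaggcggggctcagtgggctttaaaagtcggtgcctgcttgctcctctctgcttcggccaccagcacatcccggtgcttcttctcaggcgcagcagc
Of the 34 genes, 26 had promoters in the RefSeq table, and 13 of their 40 promoters, from 12 genes, held TGCCGC or GCGGCA. Some of these promoters overlap, as those of Snrpn and Snurf do, and joined they were 37 regions, 11 with the motif. Over all 32851 promoters of the same length, 3813 (11.6%) held it. The motif contains a CpG, and the promoters of the imprinted genes had a median of 16.5 CpG beside 7 over all promoters. Among promoters with at least 16.5 CpG, 10 of 20 from imprinted genes and 2701 of 10320 (26.2%) in all held it. A match is a description of these letters and not of binding.

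Peg3, which encodes a zinc finger protein, shares a bidirectional promoter region with the ubiquitin protease gene Usp29, and both are paternally expressed. They leaned to Cast, against their 60 neighbours at 0.535. The share of Peg3 was 0.395 ± 0.0272 (SD, n = 5) and lay from 0.333 to 0.425 in the 12 libraries, all below 0.5, with the 4 XistΔm6A/11C libraries lowest. Its log2 ratio was -0.66 (SE 0.06, edgeR adjusted p = 3.40e-05), lower from 129S in 6 of 6 libraries. Usp29, with 78.3 allelic counts per library, had a share of 0.421 ± 0.0355 and a log2 ratio of -0.45 (SE 0.13, edgeR adjusted p = 0.0161), in 5 of 6 libraries. Zim1, the maternally expressed zinc finger gene of the same domain, was not called (share 0.481, log2 -0.12, SE 0.11), and its lowest library, WT with Dox, had 0.306 (Wilson 95% interval 0.227 to 0.398). In the libraries with Dox the same edgeR test called Zim1 towards Cast, with a log2 ratio of -0.41.

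In the Peg10 domain of chromosome 6 the retrotransposon-derived Peg10 (share 0.423 ± 0.0279, SD, n = 5) and the sarcoglycan gene Sgce (0.454 ± 0.0309) sat near their 17 neighbours, which had 0.445 and so leaned to Cast too. Ppp1r9a, the gene of the actin-binding protein neurabin, had 0.549 ± 0.0108 among the same neighbours. It was the only one of the 3 with a share above 0.5, at a log2 ratio of 0.28 (SE 0.03, edgeR adjusted p = 3.63e-05) in 6 of 6 libraries. Inpp5f, a phosphoinositide phosphatase gene of which one transcript is imprinted, had 0.427 ± 0.0235 beside 0.532 for 84 neighbours, with a log2 ratio of -0.44 (SE 0.06, edgeR adjusted p = 0.000214). Herc3, whose intron holds the retrogene Nap1l5, had 0.607 ± 0.0250 beside 0.510 for 32 neighbours, and it was 0.0970 above them.

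At Igf2r, the receptor that clears IGF2, and Airn, the non-coding RNA that overlaps it on the opposite strand and silences it on the paternal copy, both copies of each gene were read. The share of Igf2r was 0.537 ± 0.0174 (SD, n = 5) with a log2 ratio of 0.21 (SE 0.05, edgeR adjusted p = 0.00432), and that of Airn was 0.469 ± 0.0114 with a log2 ratio of -0.17 (SE 0.04, edgeR adjusted p = 0.00695). The shares of the pair lay on opposite sides of their 42 shared neighbours at 0.516, with differences of 0.0211 and -0.0472. With TMM scaling Igf2r was not called (log2 0.09) and Airn was (log2 -0.30).

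The other informative genes lay less than 0.1 from their neighbours. Impact, a regulator of translation, had 0.445 ± 0.00770 (SD, n = 5) and H13, a signal peptide peptidase gene, 0.451 ± 0.0214, both lower from 129S in 6 of 6 libraries. Slc38a4, an amino acid transporter gene, had 0.478 and Copg2, a coat protein gene that overlaps Mest on the opposite strand, had 0.487. Ube3a had 0.497, Gnas, which encodes the stimulatory G protein, 0.514, and its antisense RNA Nespas 0.524. Mest had 0.524, the trafficking gene Trappc9 0.531 and Zdbf2 0.533. Zrsr1, Commd1 and Grb10 of chromosome 11 differed by line and are described next.

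Differences between the 5 lines in the 129S share were tested over all 12 libraries with Dox as a term (edgeR quasi-likelihood F test). Libraries of the same line, with and without Dox, stood for the spread within that line. Only XistΔm6A/11C had replicates of the same state, so for the other lines p takes in no spread between such replicates. The test called 11 of 25 imprinted genes, beside 17.5% of autosomal genes (2083 of 11918). The 11 were Grb10, Commd1 and Zrsr1 on chromosome 11, Peg10 and Sgce on chromosome 6, and Zdbf2, Plagl1, Slc38a4, Herc3, Peg3 and Snrpn. When the test was run without the genes of chromosome 11, an alternative chosen after seeing the data, 6 of 22 imprinted genes and 1059 of 10928 autosomal genes were called, and Peg10 and Sgce were no longer among them. In that run 8 imprinted genes had an unadjusted p under 0.05. The adjustment then ran over a set with a smaller part of genes called, and why Peg10 and Sgce lost their calls was not tested.

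On chromosome 11, Grb10, the gene of a growth factor receptor adaptor, and Commd1, a copper homeostasis gene whose intron holds the paternally expressed retrogene Zrsr1, followed the lines together. Zrsr1 was the gene with the widest range of line shares, 0.269. Its share was 0.526 without Dox (Wilson 95% interval 0.427 to 0.624) and 0.622 with Dox (0.514 to 0.719) in WT, 0.736 (0.645 to 0.810) and 0.780 (0.685 to 0.853) in C1, and 0.537 (0.419 to 0.651) and 0.440 (0.312 to 0.577) in 2C2. It was 0.467 (0.369 to 0.569) and 0.587 (0.474 to 0.691) in C11, 0.611 (0.478 to 0.730) and 0.667 (0.578 to 0.745) in XistΔm6A/11C replicate 1, and 0.768 (0.656 to 0.852) and 0.720 (0.628 to 0.796) in replicate 2. The libraries of C1 and XistΔm6A/11C were high and those of WT, 2C2 and C11 low, with an overlap between WT with Dox and XistΔm6A/11C replicate 1 without Dox.

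The same lines were high for the neighbours. The 32 neighbours of Commd1 had median shares of 0.708 in C1 and 0.694 in XistΔm6A/11C, beside 0.578 in WT, 0.548 in 2C2 and 0.536 in C11. Commd1 itself had 0.756, 0.719, 0.619, 0.578 and 0.575 in the same order, and Grb10 had 0.665, 0.668, 0.526, 0.541 and 0.498. The range of line shares was 0.182 for Commd1 (edgeR adjusted p = 8.20e-12), 0.170 for Grb10 (edgeR adjusted p = 3.33e-09) and 0.269 for Zrsr1 (edgeR adjusted p = 0.00199). The lines thus differed along this part of chromosome 11, in imprinted and ordinary genes alike. Grb10 lay on average 0.0444 above its 13 neighbours, Commd1 0.0364 above, while Zrsr1 minus its 31 neighbours was -0.0227.

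The plot of chromosome 11 genes against their neighbours shows this library by library. For Grb10 and Commd1 the libraries fall into a low set from WT, 2C2 and C11 and a high set from C1 and XistΔm6A/11C, and all of them lie above the diagonal of equal shares.

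**Figure D4:**
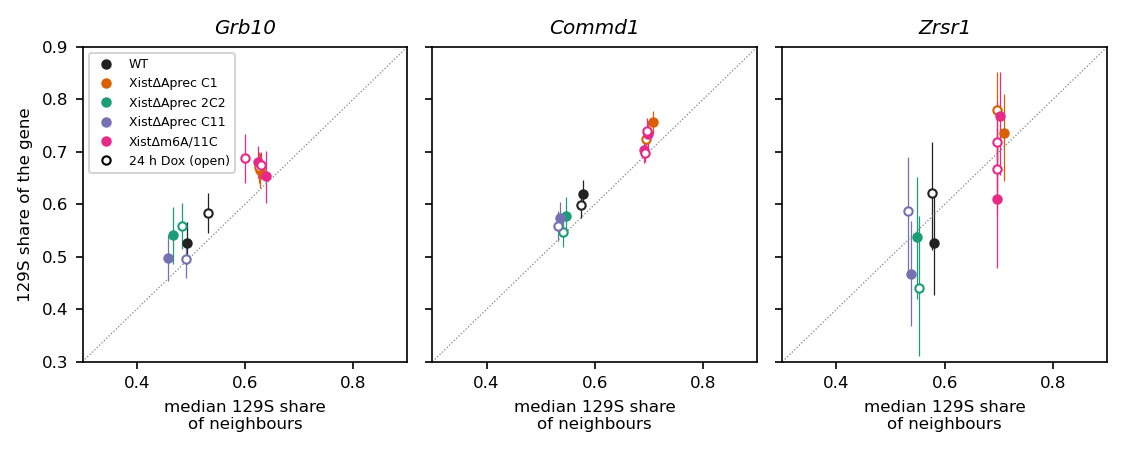
129S share of Grb10, Commd1 and Zrsr1 (vertical axis, with Wilson 95% intervals) against the median share of neighbouring genes within 5 Mb (horizontal axis), with 1 point per library, coloured by line and open with Dox. Neighbours of Commd1 are near 0.7 in C1 and XistΔm6A/11C and from 0.531 to 0.578 in WT, 2C2 and C11.

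Away from chromosome 11 the called genes had smaller ranges between lines. The range of line shares was 0.0436 for Zdbf2 (edgeR adjusted p = 0.00190), 0.0411 for Slc38a4 (edgeR adjusted p = 0.00245), 0.0633 for Peg3 (edgeR adjusted p = 0.00405) and 0.0672 for Herc3 (edgeR adjusted p = 0.00601). XistΔm6A/11C was the highest line for Zdbf2 and Slc38a4 and the lowest for Peg3, and WT was the highest for Herc3. The neighbours of Herc3 were also highest in WT, at 0.562 beside 0.492 to 0.503 in the other lines. For Sgce (adjusted p = 0.0339) and Peg10 (adjusted p = 0.0422) the edgeR call was near the threshold. The call was lost for Sgce without WT, without XistΔm6A/11C replicate 1 or with TMM scaling, for Peg10 without C1, C11 or XistΔm6A/11C replicate 2, and for Herc3 without WT or C1.

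Few of these genes were called for a change in parental share after 24 h of Xist induction. In XistΔAprec, with each clone paired to itself, 1 of 25 imprinted genes changed, Ppp1r9a, beside 1.08% of autosomal genes (edgeR quasi-likelihood test, 129 of 11918). The 129S share of Ppp1r9a fell in 3 of 3 clones, from 0.557 to 0.537 in C1, from 0.540 to 0.530 in 2C2 and from 0.564 to 0.533 in C11, a log2 change of -0.12 (SE 0.03, edgeR adjusted p = 0.00645). Over all 12 libraries Ppp1r9a had 131925 allelic counts, more than any other of the 34 genes. The call was lost without C1 or without C11, and over all genes 50, 70 and 69 genes were called without C1, 2C2 and C11. Without the pairing of clones 0 genes were called by edgeR, with 457 at an unadjusted p under 0.05. The median log2 change was 0.01 over imprinted genes and -0.01 over all genes. By the direction of the share alone, a rule chosen after the values were seen, Plagl1 was higher with Dox in all 6 pairs of libraries, beside 2.51% of ordinary genes, and Usp29 and Ppp1r9a were lower in all 6, beside 2.84%.

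In XistΔm6A/11C 0 of 25 imprinted genes changed in share in the edgeR test, 0 of them at an unadjusted p under 0.05, beside 0.176% of autosomal genes (21 of 11918, with 762 at an unadjusted p under 0.05). No other tool was run for shares. The line had only 2 replicates per state, and a gene without a call is not thereby shown to keep its share. The share of Ppp1r9a with Dox minus that without was -0.000100 in replicate 1, -0.00600 in replicate 2 and -0.0139 in WT. Whether XistΔm6A/11C differs from XistΔAprec here was not tested. For Snrpn the difference was 0.0121 in WT, 0.0303 in C1, -0.00820 in 2C2 and 0.000600 in C11, and -0.0222 and 0.0243 in the replicates of XistΔm6A/11C. Both directions occurred among the XistΔAprec clones and between the XistΔm6A/11C replicates. The 3 largest differences in 1 pair were for Zim1 (0.189 in size, WT), Usp29 (0.148, 2C2) and Zim1 again (0.141, C11), genes with few allelic counts.

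Levels of several imprinted genes differed with Dox in the same direction in every line. Peg10 was lower with Dox in 6 of 6 pairs, with log2 changes of -0.45 in WT, -0.74 in C1, -0.52 in 2C2, -0.50 in C11 and -0.62 and -0.40 in XistΔm6A/11C. Impact was lower in 6 of 6 pairs as well, with -0.57, -0.48, -0.70, -0.56, -0.58 and -0.20 in the same order. Peg10, Plagl1, Impact, Zrsr1, Gnas and Zdbf2 were lower in all 6 pairs, 6 of 25 genes beside 8.5% of the 11748 ordinary genes that averaged 50 or more counts. Copg2, Trappc9, Commd1, Nespas and Herc3 were higher in all 6 pairs, 5 of 25 genes beside 12.5% of the ordinary genes. The rule of 6 pairs was chosen after the values were seen, and the median over ordinary genes of the mean change was 0.03. When the median of ordinary genes in each pair was subtracted, Ube3a joined the genes lower in all 6 pairs, 7 of 25 beside 9.62% of ordinary genes, and the 5 higher genes stayed, beside 10.2%. Peg3, Snrpn, Sgce, Grb10 and Inpp5f were higher with Dox in every XistΔAprec clone and lower in both XistΔm6A/11C replicates, 5 of 25 genes beside 5.69% of ordinary genes. The opposite pattern was found for 0 of 25 genes and 2.69% of ordinary genes. With the median of each pair subtracted, 3 of 25 genes (Peg3, Snrpn and Grb10) and 4.29% of ordinary genes had the former pattern.

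In the test of XistΔAprec without pairing of clones, 0 of 30 imprinted genes passed (edgeR), 5 had an unadjusted p under 0.05, namely Copg2, Trappc9, Impact, Mest and Peg10, and 0.0202% of all genes passed (3 of 14866, among them Xist). DESeq2 called 3 imprinted genes, Impact (log2 -0.61, DESeq2 adjusted p = 0.000348) and Mest (log2 -0.35, DESeq2 adjusted p = 0.0457) lower and Trappc9 (log2 0.44, DESeq2 adjusted p = 0.0217) higher, and 421 genes in all. Leaving out 2C2 gave 0 genes in all by edgeR, with 710 at an unadjusted p under 0.05, and leaving out C1 or C11 gave 2.

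With the clone as a replicate block, 17 of 30 imprinted genes changed, 10 up and 7 down, beside 29.0% of all genes (4384 of 15130). The 2 libraries of a clone were alike, with deviations from the group means that correlated across 12283 genes at 0.818 for C1, 0.601 for 2C2 and 0.717 for C11, where genes are not independent replicates. In the blocked edgeR fit Peg10 fell by 0.62 on the log2 scale (SE 0.05, edgeR adjusted p = 2.56e-09) and Impact fell by 0.60 (SE 0.05, edgeR adjusted p = 1.75e-09), each in 3 of 3 clones. Plagl1 fell by 0.35 (SE 0.06), Mest fell by 0.34 (SE 0.06) and Zrsr1 fell by 0.34 (SE 0.09). Slc38a4 fell by 0.13 (SE 0.05) and Zdbf2 fell by 0.15 (SE 0.04). Trappc9 rose by 0.46 (SE 0.05, edgeR adjusted p = 3.79e-07), Sgce by 0.32 (SE 0.07) and Grb10 by 0.31 (SE 0.06). The other genes that rose were Nespas, Herc3, Copg2, Commd1, Airn, Ppp1r9a and Peg3, by 0.26 to 0.14. All of these changes had the same direction in 3 of 3 clones, except Airn with 2 of 3.

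The median change of the 30 genes was -0.03, beside 0.01 for all genes. In the blocked fit the paternally expressed Peg10 fell while Sgce, transcribed from the same promoter region, rose, and Mest fell while the overlapping Copg2 rose.

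In XistΔm6A/11C 0 of 28 imprinted genes changed in level by edgeR, 0 had an unadjusted p under 0.05 and DESeq2 called 0. Over all genes 0.0% passed in edgeR, 0 of 15140 with 173 at an unadjusted p under 0.05, and DESeq2 called 3. Xist itself, at a log2 change of 5.40, did not pass (edgeR adjusted p = 0.0546). The deviations of libraries of the same replicate number from their group means correlated at 0.77, and with the replicate as a block 237 genes were called by edgeR, 34 higher and 203 lower, with 0 of 28 imprinted genes among them and 2 at an unadjusted p under 0.05. Without replicate 1 or replicate 2, in a fit that takes the lone sample to vary like the other groups, 1 gene passed in each case. The log2 change was -0.47 for Peg10 (SE 0.37), -0.42 for Impact (SE 0.24) and 0.07 for Trappc9 (SE 0.21). A p that misses the threshold does not show that these levels did not differ. The imprinted genes' median log2 change was -0.10, beside 0.00 over all genes.

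The plot of level changes orders the 25 genes by their mean change. The lower end is held by Peg10, Impact and Plagl1 and the upper end by Trappc9 and Herc3, and for these 5 the 6 pairs lie on one side of 0.

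**Figure D5:**
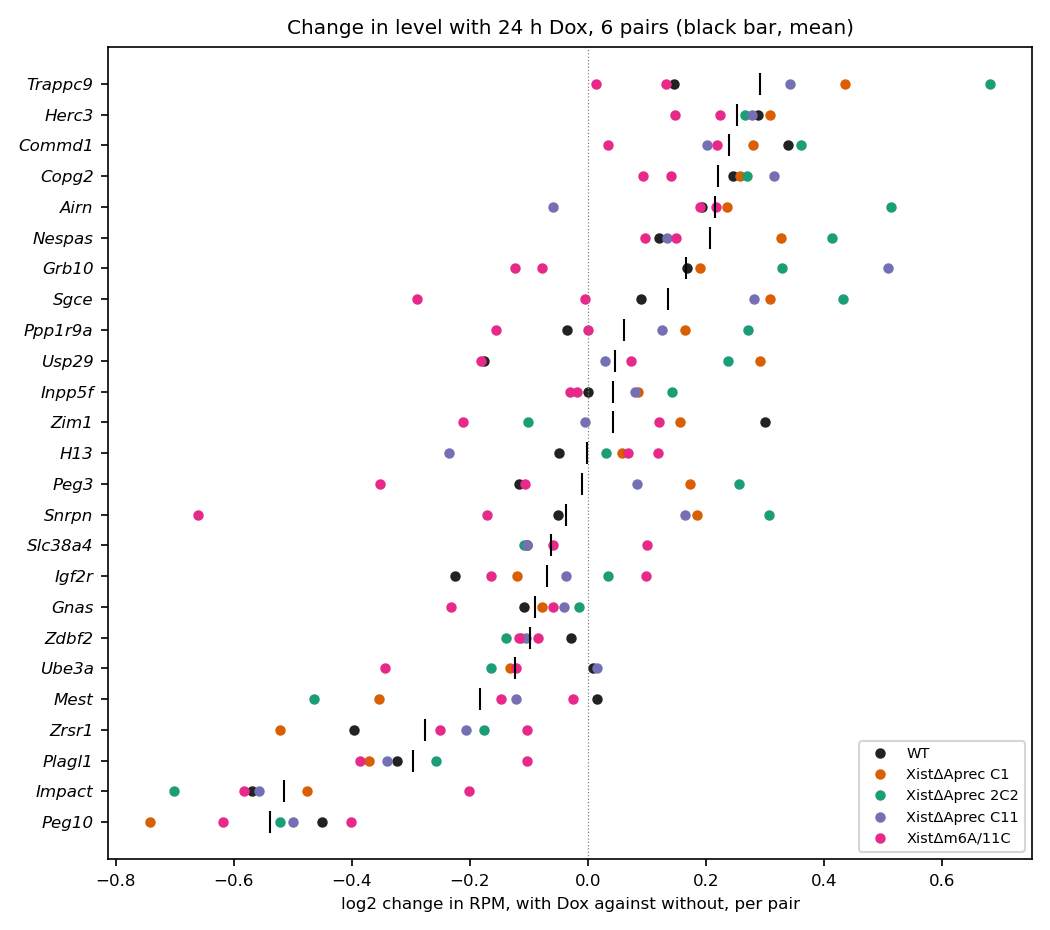
Log2 change in RPM with 24 h of Dox (horizontal axis) of the 25 imprinted genes that averaged 50 or more counts (rows), with 1 point for each of 6 pairs of libraries, coloured by line, and a black bar for the mean. Peg10 has a mean of -0.54 and Trappc9 a mean of 0.29.

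Per length, Impact was the most abundant of the imprinted genes with a mean of 10.1 RPKM, followed by Peg10 with 9.53, Nespas with 7.46 and Ube3a with 6.99. Snrpn had 0.117 RPKM and Usp29 0.0272 RPKM, the lowest among the informative genes. The lines differed in the level of 16 of 30 imprinted genes, beside 35.2% of all genes (edgeR F test over lines, 5568 of 15826). As for shares, libraries of the same line, with and without Dox, stood for the spread within that line. Levels in the libraries of a clone were alike, as given above, so they are not independent replicates of the line. XistΔm6A/11C had the highest level of the lines for 11 of these 16 genes and the lowest for 5, where it was the highest for 51.2% and the lowest for 40.4% of all genes called, a comparison chosen after the values were seen. Cell type markers differed with this line too, with primitive endoderm sums of 25.7 to 38.1 RPM in XistΔm6A/11C beside 11.8 to 15.9 RPM elsewhere, lower fibroblast sums, and the lowest sums of embryonic stem cell markers in replicate 2. Whether the levels of the imprinted genes follow these was not tested. These counts move with the XistΔm6A/11C replicates: 27 imprinted genes and 9781 genes in all were called without replicate 1, and 24 and 10181 without replicate 2.

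The 5 genes with their lowest level in XistΔm6A/11C were Snrpn, Mest, Plagl1, Impact and Zdbf2. Impact had 122 RPM in XistΔm6A/11C and from 241 to 282 RPM in the other lines (edgeR adjusted p = 0.000237), without overlap of libraries between XistΔm6A/11C and the others. The 11 with their highest level in XistΔm6A/11C were Peg3, Zim1, Sgce, Ppp1r9a, Airn, Trappc9, Zrsr1, Commd1, Inpp5f, Nespas and Slc38a4. Trappc9 had 300 RPM there and from 134 to 159 RPM in the other lines (edgeR adjusted p = 0.000238), and Airn had 144 RPM and from 61.0 to 87.8 RPM (edgeR adjusted p = 0.000123). The calls of Zdbf2 and Inpp5f were lost without any one of the XistΔAprec clones, and those of Slc38a4 without C1 or C11 and of Nespas without C1. With DESeq2 size factors Zdbf2, Slc38a4 and Inpp5f were not called, and without a count filter Slc38a4 and Inpp5f were not.

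A list of 10 factors that act on imprints or on DNA methylation, among them Tet1 and Tet2, which oxidise methylated cytosine, had counts in every library. Zfp57 had 241 to 311 RPM over the lines and was not called for a difference between them (edgeR adjusted p = 0.349). Trim28 had 229 RPM in XistΔm6A/11C and from 348 to 413 RPM in the other lines (edgeR adjusted p = 0.00124), and Tet1 had 1185 RPM there and from 2216 to 2734 RPM in the others (edgeR adjusted p = 0.000229). Zfp445, Setdb1, Uhrf1, Ctcf and Tet2 were called as well, while Dnmt1 and Dppa3 were not, which makes 7 of 10 factors beside 35.2% of all genes. Zfp445 (edgeR adjusted p = 0.0381) and Setdb1 (edgeR adjusted p = 0.0365) were near the threshold. The number of genes called in all rose when either XistΔm6A/11C replicate was left out, as given above. Cell type markers also differed with this line, and whether the factors follow them was not tested. None of the 10 factors was called for a change in level with Dox in XistΔAprec or XistΔm6A/11C by the unblocked edgeR test. With the clone as a block, 5 of 10 were called in XistΔAprec, beside 29.0% of all genes. With the replicate as a block, 0 of 10 were called in XistΔm6A/11C, where only 237 of 15140 genes in all were called. Whether the factors differ between XistΔAprec and XistΔm6A/11C in their change with Dox was not tested. In the blocked edgeR fit of XistΔAprec, Uhrf1 fell by 0.29 on the log2 scale (SE 0.05, edgeR adjusted p = 7.58e-05). Tet1 fell by 0.26 (SE 0.04, edgeR adjusted p = 6.97e-05) and Tet2 fell by 0.22 (SE 0.05, edgeR adjusted p = 0.00103). Zfp57 fell by 0.20 (SE 0.05, edgeR adjusted p = 0.00174) and Trim28 fell by 0.18 (SE 0.05, edgeR adjusted p = 0.00921). All 5 were lower in 3 of 3 clones, and Zfp57 was lower in 6 of 6 pairs of libraries, as were 8.5% of ordinary genes. In the blocked fit of XistΔm6A/11C, without a call, the log2 change was -0.35 for Zfp57 and -0.07 for Trim28. It was above 0 there for Uhrf1 (0.15), Tet2 (0.09) and Tet1 (0.08).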

How the data were processed

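The counts were made by the authors and taken as deposited. The submitters' notes name Bowtie2 2.3.2, STAR 2.4.2a, SAMtools and bedtools with mm10. Per the file headers, alignments were split by parental genome, and read pairs were counted over whole transcript spans, introns included, by strand with featureCounts 1.5.2. The parental column that held the allelic Xist counts was taken as 129S. Total counts and counts of each parental copy were used for 12 libraries. The 34 genes were found by their symbols in the gene column. The genes and the lists were chosen with earlier results of these data known.

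Gene counts per library ranged from 18893447 to 36007145. Shares were computed from summed parental counts with Wilson 95% intervals, for genes averaging 20 or more allelic counts. Parental ratios were tested with quasi-likelihood fits in edgeR 4.0.16 on paired parental columns, scaled by library total, and levels with TMM scaling after filterByExpr. Benjamini-Hochberg adjusted p under 0.05 was the threshold. DESeq2 1.42.0 was run beside edgeR for levels, with R 4.3.3, limma 3.58.1, Python 3.11.15, pandas 2.3.3 and scipy 1.17.1. Each clone or replicate was paired with itself in tests of Dox on shares. Levels were tested without pairing, and with it as an alternative. The tests were tried on simulated counts. WT, with 1 library per state, entered the tests over several lines and had no Dox test of its own. Promoters of 300 bases were taken from RefSeq on GRCm38.p6.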

Additional observations from a re-analysis of the deposited data

Results flagged for a closer look

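For 5 genes the level with Dox went up in every XistΔAprec clone and down in both XistΔm6A/11C replicates, a pattern that 5.69% of ordinary genes had as well. The mean log2 change of XistΔm6A/11C minus that of XistΔAprec was -0.63 for Snrpn (means 0.22 in XistΔAprec and -0.42 in XistΔm6A/11C), -0.49 for Sgce (0.34 and -0.15) and -0.44 for Grb10 (0.34 and -0.10). It was -0.40 for Peg3 (0.17 and -0.23) and -0.13 for Inpp5f (0.10 and -0.02). The replicates of XistΔm6A/11C were unequal, with -0.17 and -0.66 for Snrpn, -0.29 and -0.0045 for Sgce, -0.12 and -0.08 for Grb10, -0.11 and -0.35 for Peg3 and -0.03 and -0.02 for Inpp5f. In replicate 2 the median change of ordinary genes was -0.06, lower than the values of Sgce and Inpp5f, and with the median of each pair subtracted only Peg3, Snrpn and Grb10 kept the pattern, which 4.29% of ordinary genes then had. In WT the change was -0.12 for Peg3, -0.05 for Snrpn, 0.09 for Sgce, 0.17 for Grb10 and 0.0003 for Inpp5f, so that WT went with neither group throughout. These differences between the groups were not tested.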

How the results depend on the processing

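Most calls for single genes kept their side of the threshold under other scalings, count filters, tests and left-out replicates, namely 224 of the results on the 2 copies, 260 on shares between lines and 204 on levels between lines, beside 18, 11 and 14 that became weaker and 8, 1 and 22 that became stronger. No called gene reversed its direction, but with TMM scaling of the parental columns the split of called imprinted genes turned from 11 towards 129S and 8 towards Cast to 6 and 11, and Gnas, not called, went from a log2 ratio of 0.07 to -0.05. In the libraries with Dox, Zim1 and Zrsr1 gained a call and Mest and Nespas lost theirs. The cause of the differences below was not tested. Without pairing of clones or replicates as a block, the Dox tests on shares called 0 imprinted genes and 0 genes in all in XistΔAprec, and 0 genes in all in XistΔm6A/11C. With other count filters 12 genes in all were called in XistΔm6A/11C (at least 10 allelic counts, or no filter). Leaving out a clone gave 0 to 1 imprinted genes and 50 to 70 genes in all for XistΔAprec. For levels with Dox in XistΔAprec, DESeq2 called 3 imprinted genes and 421 genes in all, and a clone block 17 and 4384, while leaving out a clone gave 0 to 2 genes in all. In XistΔm6A/11C, 2 genes in all were called with no filter, 3 by DESeq2, 237 with a replicate block and 1 with either replicate left out. Between lines, leaving out a library pair gave 12 to 27 imprinted genes and 4399 to 10181 genes in all for levels. Without chromosome 11, an alternative chosen after seeing the data, 6 imprinted genes and 1059 genes in all differed in share between lines. The count of genes with an extreme share was 0 at limits of 0.05 and 0.95, and 0 without genes that share their strand with another gene, which removes Snrpn. It was 6 by distance from neighbours, also chosen after seeing the data. Leaving out a replicate of XistΔm6A/11C leaves 1 pair and no test of shares with Dox.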
